A study of Mus musculus with 9 samples.

Results

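The spliceosome core proteins and the heterogeneous nuclear ribonucleoproteins (hnRNPs) were followed in MC38 cells, a mouse colon carcinoma line. Members were the genes whose symbol starts with Snrp, Sf3a or Sf3b, Lsm and a digit, Prpf and a digit, U2af or Hnrnp. The rule matched 71 of the 16509 genes in the deposited table. These were 12 snRNP genes, 9 SF3 genes, 13 LSm genes, 13 PRPF genes, 3 U2AF genes and 21 hnRNP genes. In all, 70 of them were detected well enough to be tested, and the other one was Snrpn, an Sm protein gene known mainly from neurons, with 1 count in a single Ctrl library and 0 in the other libraries.

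Polyadenylated RNA was sequenced in 9 libraries. Of these, 3 came from control cells (Ctrl), 3 from cells given copper with cystine (Cu-Cys) and 3 from cells given Cadict, a nanodrug in which Cu-Cys is combined with glucose oxidase and the EGFR-binding GE11 peptide. The labels name DMSO as the agent of the control cells, whereas the study's text names PBS. No dose or time of treatment was stated for these libraries, and the table abbreviates the treated groups as CC and CCGE, which were read as Cu-Cys and Cadict from their components. The study states in general that cell experiments were repeated independently, without saying whether each of these libraries came from its own culture. Where they did not, p-values measure only the spread between these libraries, which may be technical.

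The spliceosome removes introns from pre-mRNA through small nuclear ribonucleoproteins (snRNPs), each an RNA with its own proteins on a ring of Sm proteins or, for U6, of LSm proteins. U2AF reads the end of the intron, the SF3A and SF3B complexes hold U2 at the branch point, and the PRPF proteins carry the U4/U6.U5 tri-snRNP and its rearrangements. The hnRNPs coat the nascent transcript and influence which exons are kept, and an unusual pair of LSm proteins, Lsm10 and Lsm11, belongs instead to U7, which trims the ends of histone pre-mRNA.

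Promoters are shown for the members that rose most with Cadict (U2af1 and Hnrnpc), for the U7 pair that fell (Lsm10 and Lsm11), and for the Sm protein gene Snrpe and the SF3B subunit gene Sf3b6, which carry matches to another element. RefSeq promoters on GRCm38.p6, each running from 250 bases before to 50 bases after the start, matched 59 of the 71 members. In the first 4 sequences capitals mark the CCAAT box (CCAAT, read on both strands), and matches on opposite strands overlap in U2af1.
U2af1, chr17:31658705-31659004, minus strand: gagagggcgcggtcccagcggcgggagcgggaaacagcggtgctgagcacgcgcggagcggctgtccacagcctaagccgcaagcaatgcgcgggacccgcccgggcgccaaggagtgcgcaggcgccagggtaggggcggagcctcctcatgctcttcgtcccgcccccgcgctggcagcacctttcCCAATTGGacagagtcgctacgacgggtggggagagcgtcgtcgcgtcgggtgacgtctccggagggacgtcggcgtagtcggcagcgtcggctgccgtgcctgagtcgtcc
Hnrnpc, chr14:52103972-52104271, minus strand: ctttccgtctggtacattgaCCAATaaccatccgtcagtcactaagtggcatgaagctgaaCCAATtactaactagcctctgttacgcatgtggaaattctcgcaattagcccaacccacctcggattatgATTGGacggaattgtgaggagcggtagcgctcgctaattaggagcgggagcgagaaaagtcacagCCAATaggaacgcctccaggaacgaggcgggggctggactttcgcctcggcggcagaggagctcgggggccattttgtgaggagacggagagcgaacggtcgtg
Lsm10, chr4:126096403-126096702, plus strand: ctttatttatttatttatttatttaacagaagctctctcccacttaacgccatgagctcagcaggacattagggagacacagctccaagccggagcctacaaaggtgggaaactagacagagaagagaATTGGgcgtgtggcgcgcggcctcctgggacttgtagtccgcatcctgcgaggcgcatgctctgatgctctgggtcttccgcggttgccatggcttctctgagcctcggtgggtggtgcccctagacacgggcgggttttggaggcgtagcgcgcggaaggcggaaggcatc
Lsm11, chr11:45944886-45945185, minus strand: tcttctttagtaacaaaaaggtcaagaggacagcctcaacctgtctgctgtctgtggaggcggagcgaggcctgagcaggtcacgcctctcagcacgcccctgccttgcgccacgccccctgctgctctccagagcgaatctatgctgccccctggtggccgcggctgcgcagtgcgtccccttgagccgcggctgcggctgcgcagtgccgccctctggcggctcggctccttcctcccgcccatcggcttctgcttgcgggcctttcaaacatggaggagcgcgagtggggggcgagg
In the following pair capitals mark the core bound by ETS factors (CCGGAAG, read on both strands), and matches on opposite strands overlap in Snrpe.
Snrpe, chr1:133610231-133610530, minus strand: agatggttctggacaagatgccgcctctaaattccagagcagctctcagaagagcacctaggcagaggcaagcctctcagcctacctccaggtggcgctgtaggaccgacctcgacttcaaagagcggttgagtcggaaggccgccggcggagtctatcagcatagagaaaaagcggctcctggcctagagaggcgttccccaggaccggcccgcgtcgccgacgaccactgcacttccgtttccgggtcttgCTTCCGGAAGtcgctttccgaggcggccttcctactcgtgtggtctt
Sf3b6, chr12:4817358-4817657, plus strand: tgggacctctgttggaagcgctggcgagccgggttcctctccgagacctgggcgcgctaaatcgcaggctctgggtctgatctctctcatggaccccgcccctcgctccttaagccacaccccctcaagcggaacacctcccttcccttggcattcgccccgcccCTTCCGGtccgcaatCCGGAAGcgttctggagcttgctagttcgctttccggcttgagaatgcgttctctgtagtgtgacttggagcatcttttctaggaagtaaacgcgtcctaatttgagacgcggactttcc
The Hnrnpc promoter held 4 CCAAT matches, U2af1 held 2, Lsm10 held 1 and Lsm11 held 0, while Snrpe and Sf3b6 held 2 ETS matches each. CCAAT stood in 50.6% of the 79 promoters of members and in 37.4% of all 32851 promoters of the same length. The ETS core stood in 25.3% of the members' promoters and in 8.86% of all promoters, and the E-box CACGTG in 13.9% and 7.15%. The cyclic AMP response element TGACGTCA stood in 3.80% and 1.79%, and GAANNTTC, only a part of the heat shock element, in 8.86% and 7.86%. The antioxidant response element TGACNNNGC (10.1% and 12.4%) and the TATA box TATAAA (7.59% and 13.6%) were less frequent in the members' promoters. A match describes letters in this window and is not a measured binding site.

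Total counts were 17905771 to 18293056 per library, so that 3 counts, the upper limit behind a count of 0, corresponded to 0.130 to 0.261 CPM (counts scaled to library size) on the scale used here, for counting error only. Libraries were scaled by edgeR's TMM method, with factors of 1.26 to 1.27 in Ctrl, 1.21 in Cu-Cys and 0.640 to 0.665 in Cadict libraries. The 100 most abundant genes took 17.2% to 17.4% of the counts in Ctrl and 29.8% to 31.1% with Cadict. Using library totals alone moved the median change of the 11949 tested genes (log2) from -0.13 to -1.08 in Cadict against Ctrl, and the share of calls that were higher fell from 43.3% to 11.9%. With limma on log2(TPM + 1) that share was 5.67%. Changes with Cadict are given on the TMM scale, which centres libraries on the typical gene. Values under library totals were lower by a median of 0.95 log2 units. They stand beside the TMM values for part of the members only, so a rise without such a value may not hold there. Replicates differed more among Cadict libraries (chi-square per degree of freedom 3.48 to 21.7) than among Ctrl libraries (1.88 to 2.04), and replicate 2 of Cadict stood apart most. Without it 29 members were called higher and 2 lower against Ctrl, with a median of 0.82. Epithelial markers were low for a carcinoma line, with Epcam at 0 TPM and Krt8 at 0.170 TPM on average in Ctrl, only 2 of the 7 listed passed the filter, and the 7 summed to 4.22 to 6.24 TPM in Ctrl, 3.50 to 3.95 in Cu-Cys and 11.5 to 13.3 in Cadict libraries. Summed over 5 fibroblast markers, the level was 187 to 211 TPM in Ctrl, 83.1 to 86.5 in Cu-Cys and 12.1 to 15.3 in Cadict libraries. Much of this sum was Col3a1, at 150, 54.5 and 4.35 TPM on average in Ctrl, Cu-Cys and Cadict. Pdgfra and Pdgfrb were lower with Cadict too (log2 fold change -2.59 and -0.78). Dcn, scarce at 0.83 TPM in Ctrl, was higher (0.82, adjusted p = 0.0188 in edgeR), and Lum was barely detected. Leukocyte markers summed to 6.89 to 7.45 TPM in Ctrl, 4.55 to 5.63 in Cu-Cys and 14.8 to 18.2 in Cadict libraries, and endothelial markers to at most 1.2 TPM in any library. The part of these marker changes in the results below was not tested, and fewer cells of a type cannot be told apart from less RNA per cell.

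With Cadict, most spliceosome and hnRNP genes stood above the typical gene. Their median log2 fold change against Ctrl was 0.86, compared with -0.13 over all genes tested, and 62 of 70 lay above the median of all genes. With calls set at a fold change of 2 or more with an adjusted p no greater than 0.001, 31 members were higher and 2 were lower, whereas 20.7% of all tested genes were called higher and 27.1% lower. When only an adjusted p no greater than 0.05 was asked for, 56 were higher, 7 were lower and 7 did not pass (Hnrnpl, Lsm2, Lsm6, Prpf39, Prpf6, Sf3a2 and Sf3b5), and the background was 40.6% higher and 47.1% lower. The groups were not alike in their medians, which were 1.19 for snRNP, 1.15 for U2AF, 1.05 for hnRNP, 0.80 for SF3, 0.59 for LSm and 0.41 for PRPF genes. Under library totals the medians of SF3, LSm and PRPF genes lay below 0 (-0.15, -0.37 and -0.55), and on the log2(TPM + 1) scale every group median did, from -0.14 for snRNP to -0.87 for PRPF genes. With TMM, calls in the higher direction fell on 8 of 11 snRNP, 13 of 21 hnRNP, 2 of 3 U2AF, 3 of 9 SF3, 3 of 13 LSm and 2 of 13 PRPF genes. Both members called lower were LSm genes.

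**Figure D1:**
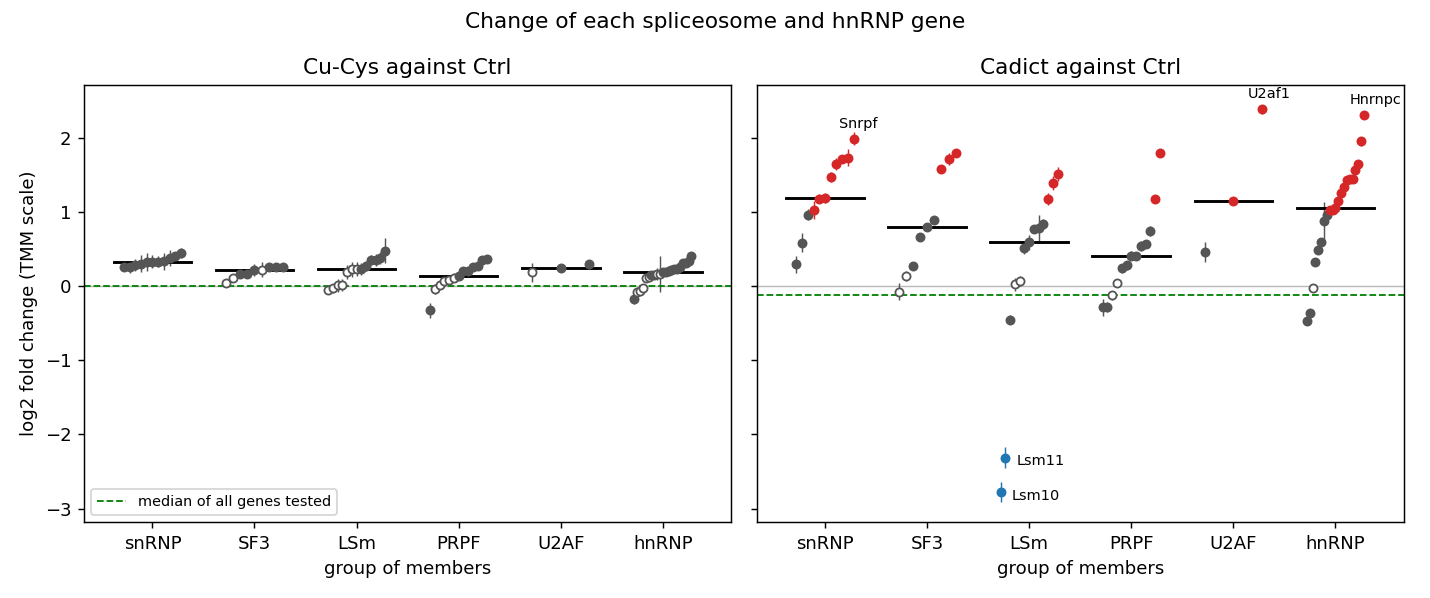
Each point is a member and its bar is the standard error, with the log2 fold change on the TMM scale on the y axis and the groups of members on the x axis (left, Cu-Cys against Ctrl; right, Cadict against Ctrl). Red and blue mark calls (higher and lower), open points did not pass an adjusted p of 0.05, black lines are group medians and the dashed line is the median of all genes tested. Members spread from -2.78 to 2.38 with Cadict and from -0.33 to 0.48 with Cu-Cys, and under library totals the members' median with Cadict was -0.09.

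How far this pattern depends on the scale was shown by the counts of calls. Under library totals 3 members were called higher (Hnrnpc, Snrpf and U2af1) and 9 lower, where 6.93% of all genes were called higher and 51.5% lower, and the median of the members was -0.09 beside -1.08 for all genes. With limma on log2(TPM + 1), U2af1 alone was called higher and 16 members were called lower, beside 3.26% and 54.2% of all genes. A log2 fold change above 0 was seen in 60 of 70 members with TMM, in 33 with library totals and in 19 on the log2(TPM + 1) scale. DESeq2 size factors gave 34 calls higher and 2 lower, among them the same 31 and the same 2, beside 23% and 24.6% of all genes. These scalings of the counts shift every gene by nearly the same amount, so the number of members above the median of all genes (62 of 70 with TMM) could hardly differ between them. In limma on log2(TPM + 1) it was 55. The share of all counts taken by the members was 1.78% to 1.81% in Ctrl, 1.92% to 1.97% in Cu-Cys and 1.94% to 2.01% in Cadict libraries, so their summed share with Cadict overlapped that with Cu-Cys.

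**Figure D2:**
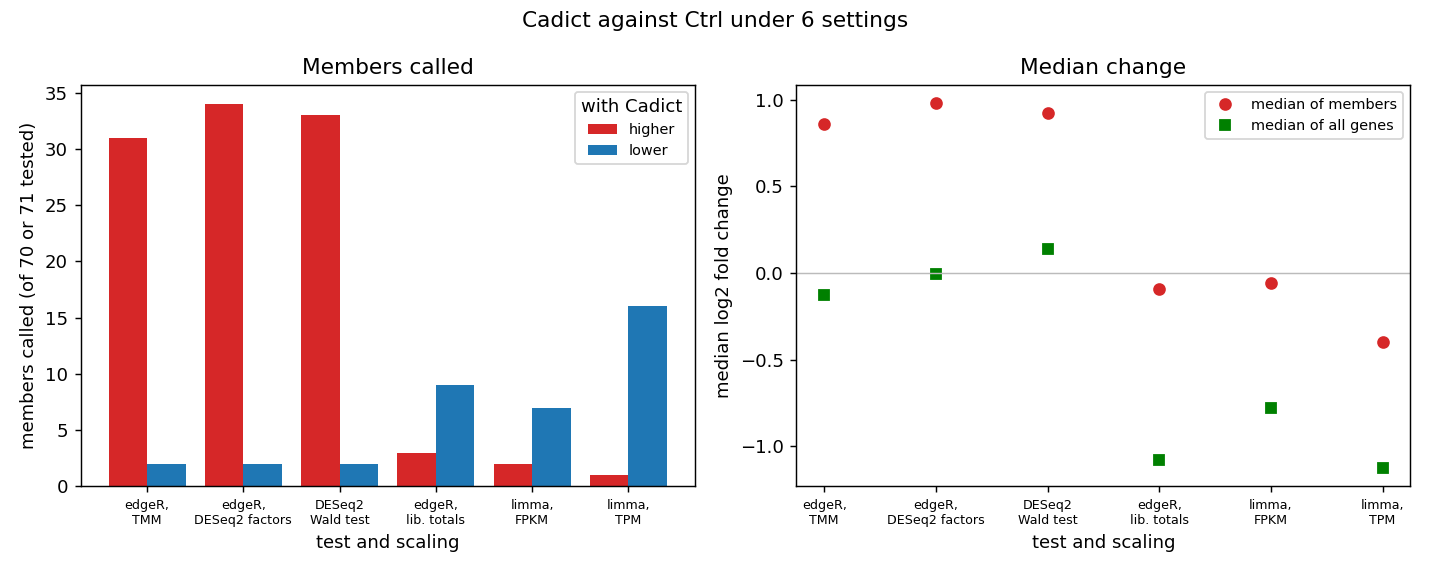
Cadict against Ctrl under 6 combinations of test and scaling (x axis). Left, members called higher (red) and lower (blue); right, median log2 fold change of the members (circles) and of all genes (squares). Calls went from 31 higher and 2 lower with TMM to 3 higher and 9 lower with library totals, while the members' median stayed above that of all genes in each of the 6 settings.

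Members of the U2AF heterodimer, which recognises the polypyrimidine tract and the AG at the end of the intron, held the largest rise. U2af1, the small subunit that contacts the AG, stood at 91.1, 94.8 and 88.3 CPM in the 3 Ctrl libraries, 114, 109.7 and 112 CPM with Cu-Cys and 469, 518 and 442 CPM with Cadict. Each Cadict library was over 4 times as high as any Ctrl library, and the groups did not overlap (log2 fold change 2.38 ± 0.061 SE, adjusted p = 9.4e-15 in edgeR). Under library totals its log2 fold change was 1.43. The large subunit U2af2, which binds the polypyrimidine tract, rose from 224 ± 1.152 to 496 ± 16.9 CPM (mean ± SD, n = 3), with log2 fold change 1.15 ± 0.047 SE, adjusted p = 1.9e-12 in edgeR, but its value on the TPM scale was -0.16. The paralog U2af1l4 was scarce, at 7.57, 7.14 and 6.93 CPM in Ctrl and 10.7, 11.8 and 7.31 CPM with Cadict, and its groups overlapped with replicate 3 of Cadict among the Ctrl values (log2 fold change 0.46, adjusted p = 0.00573 in edgeR; -0.50 under library totals). Summed over the group, U2AF was the only group whose TPM was higher in every Cadict library (888 to 942) than in every Ctrl library (595 to 623). Of the 50-base stretches in U2af1 transcripts, 21.7% also occur in another annotated gene, chiefly Gm10232, so part of its count could belong elsewhere.

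The snRNP genes encode the Sm ring and the proteins particular to U1 and U2. All 11 tested genes were higher with Cadict at an adjusted p of at most 0.05, and 8 were called. Snrpf, an Sm ring protein, measured 37.9, 35.9 and 36.4 CPM in Ctrl, 43.2, 49.1 and 45.9 CPM with Cu-Cys and 137, 169.9 and 128 CPM with Cadict. The Cadict values lay above all others and replicate 2 was the highest of them (log2 fold change 1.98 ± 0.089 SE, adjusted p = 5.78e-12 in edgeR; 1.03 under library totals). In Snrpf, 89.5% of the 50-base stretches are shared with other annotated genes, chiefly Ccdc38, so its count cannot be assigned to Snrpf with certainty. Snrpe, its neighbour in the ring, measured 52.3, 53.0 and 54.1 CPM in Ctrl, 62.1, 70.97 and 67.5 CPM with Cu-Cys and 162, 223 and 143 CPM with Cadict. Again the groups did not overlap and Cadict replicate 2 was highest (log2 fold change 1.73 ± 0.12 SE, adjusted p = 1.09e-09 in edgeR).

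At the other end of the range, the ring gene Snrpg measured 37.5, 41.2 and 43.3 CPM in Ctrl, 45.6, 55.1 and 57.7 CPM with Cu-Cys and 44.4, 60.9 and 44.3 CPM with Cadict. Cadict replicates 1 and 3 were only just above the highest Ctrl library and below every Cu-Cys library (log2 fold change 0.29 ± 0.11 SE, adjusted p = 0.0259 in edgeR), and under library totals the sign turned (-0.66). The call at 0.05 was lost without Cadict replicate 2 (log2 fold change 0.12, adjusted p = 0.175 in edgeR), Ctrl replicate 1 (adjusted p = 0.11 in edgeR) or Ctrl replicate 2 (adjusted p = 0.0526 in edgeR). The rest of the ring stood between these ends, with log2 fold changes of 0.59 for Snrpd2, 1.02 for Snrpd1, 1.19 for Snrpd3 and 1.47 for Snrpb. Under library totals Snrpd2 turned sign (-0.37) and Snrpd1 did not pass (0.07, adjusted p = 0.566 in edgeR). Snrpd3 and Snrpb stayed higher there (0.23 and 0.52). Snrpa, the U1 protein that binds a stem-loop of U1 RNA, rose from 66.2 ± 0.547 to 216 ± 10.5 CPM (SD, n = 3), with log2 fold change 1.71 ± 0.053 SE, adjusted p = 9.31e-14 in edgeR. Its U2 counterpart Snrpb2 rose from 54.4 ± 2.11 to 123 ± 7.32 CPM (SD, n = 3; log2 fold change 1.18 ± 0.057 SE, adjusted p = 1.69e-11 in edgeR), and the other U2 protein gene, Snrpa1, had a log2 fold change of 1.65. For Snrpb2 the sign turned on the TPM scale (-0.14), whereas Snrpa stayed higher there (0.39).

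Because the ring proteins assemble in equal numbers, their mRNA levels were also compared with each other, per length, in TPM. In Ctrl libraries the highest Sm ring gene was 5.78 to 7.50 times the lowest, and in Cu-Cys libraries 6.49 to 6.70 times. With Cadict the ratio was 3.41 to 3.98, below every other library. Snrpg was highest and Snrpf lowest in Ctrl and Cu-Cys, while Snrpe was highest in every Cadict library and Snrpd1 or Snrpf lowest. Snrpg went from 986, 1059.8 and 1207 TPM in Ctrl to 454, 538 and 452 TPM with Cadict, and Snrpf from 171, 157 and 161 TPM to 249, 269 and 243 TPM. The U6 LSm ring moved the other way, from a ratio of 8.88 to 10.1 in Ctrl and 7.55 to 8.88 in Cu-Cys to 22.1 to 25.2 with Cadict, with Lsm5 highest and Lsm6 lowest in all 9 libraries. The TPM of the shortest genes rests on very short implied lengths, about 80.1 bases for Snrpg, so small errors in length weigh heavily on these ratios.

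**Figure D3:**
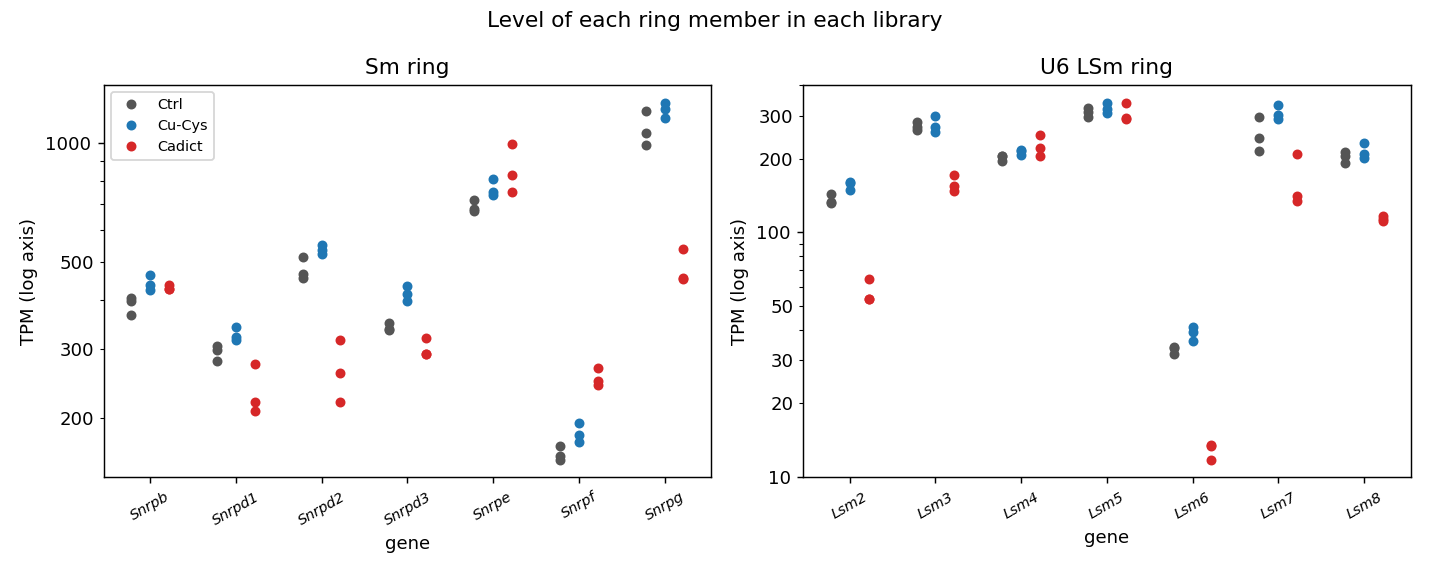
TPM (y axis, log scale) of the 7 Sm ring genes and the 7 U6 LSm ring genes (x axis) in each library, coloured by treatment. The Sm levels draw together with Cadict (highest to lowest 3.41 to 3.98, against 5.78 to 7.50 in Ctrl), and the U6 LSm levels spread apart (22.1 to 25.2, against 8.88 to 10.1).

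The LSm genes held both rises and the only falls that were called. Lsm10, a component of the U7 ring, measured 17.0, 16.0 and 14.7 CPM in Ctrl, 16.3, 15.1 and 16.5 CPM with Cu-Cys and 1.87, 2.27 and 2.77 CPM with Cadict, which rests on 22, 26 and 33 counts. Its partner Lsm11 measured 17.4, 18.2 and 18.7 CPM in Ctrl, 20.8, 17.7 and 16.1 CPM with Cu-Cys and 4.33, 3.22 and 3.36 CPM with Cadict, on 51, 37 and 40 counts. For both genes Ctrl and Cu-Cys overlapped and every Cadict library was far below them. The log2 fold change with Cadict was -2.78 ± 0.14 SE for Lsm10 (adjusted p = 1.61e-11 in edgeR) and -2.31 ± 0.14 SE for Lsm11 (adjusted p = 2.03e-10 in edgeR). With Cu-Cys it was 0.01 and 0.01. These falls kept their direction under every scaling tried and were -3.73 and -3.26 under library totals. Their transcripts share at most 0.480% of their 50-base stretches with other genes.

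Within the U6 ring, which binds the end of U6 RNA and helps it pair with U4, Lsm5 measured 25.1, 24.7 and 25.7 CPM in Ctrl, 27.7, 31.2 and 29.6 CPM with Cu-Cys and 59.4, 79.7 and 58.9 CPM with Cadict. It was called higher without overlap (log2 fold change 1.39 ± 0.10 SE, adjusted p = 1.64e-09 in edgeR), as was Lsm4 (log2 fold change 1.51 ± 0.10 SE, adjusted p = 8.04e-10 in edgeR). On the TPM scale Lsm5 stood at -0.02. Lsm6 measured 48.2, 49.96 and 46.7 CPM in Ctrl, 58.8, 64.7 and 64.7 CPM with Cu-Cys and 43.8, 58.1 and 45.4 CPM with Cadict, so that Cadict overlapped Ctrl and lay below every Cu-Cys library (log2 fold change 0.02 ± 0.088 SE, adjusted p = 0.8 in edgeR). Lsm2 behaved in the same way in its values, with 34.2, 43.6 and 35.9 CPM on average in the 3 groups (log2 fold change 0.07 ± 0.068 SE, adjusted p = 0.333 in edgeR). Under library totals Lsm2 and Lsm6 were lower with Cadict (-0.88 and -0.93). Lsm1, which replaces Lsm8 in the cytoplasmic ring that promotes decapping, was called higher (log2 fold change 1.17 ± 0.082 SE, adjusted p = 1.46e-09 in edgeR). Among the larger LSm proteins of RNA granules, Lsm14a went from 181 ± 4.76 to 307 ± 17.7 CPM (SD, n = 3; log2 fold change 0.76, -0.19 under library totals), and Lsm14b from 78.1 ± 1.6 to 57.1 ± 5.03 CPM (log2 fold change -0.45).

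In the SF3 group, which clamps the branch point and holds U2 there, 7 of 9 genes were higher with Cadict at an adjusted p of at most 0.05 and 3 were called. Sf3b4, the SF3B subunit that contacts pre-mRNA upstream of the branch point, measured 104, 101 and 102 CPM in Ctrl, 125, 117 and 124 CPM with Cu-Cys and 354, 351 and 352 CPM with Cadict. The Cadict libraries were almost equal, and the groups did not overlap (log2 fold change 1.79 ± 0.047 SE, adjusted p = 1.55e-14 in edgeR). The annotated gene Gm7935 holds 43.6% of the 50-base stretches of Sf3b4. Sf3b6, the small subunit at the branch adenosine, measured 27.0, 30.1 and 28.9 CPM in Ctrl, 31.1, 34.2 and 34.4 CPM with Cu-Cys and 88.7, 107 and 86.8 CPM with Cadict (log2 fold change 1.72 ± 0.081 SE, adjusted p = 1.14e-11 in edgeR), and none of its stretches are shared. Sf3b1, the scaffold that closes around the branch helix and is mutated in myeloid neoplasms, rose from 385 ± 9.87 to 1149 ± 75.4 CPM (SD, n = 3; log2 fold change 1.58 ± 0.055 SE, adjusted p = 3.13e-13 in edgeR). Sf3b3 and Sf3a3 rose less, by 0.26 and 0.66 on the log2 scale (adjusted p = 0.000218 and 7.21e-09 in edgeR), and both turned sign under library totals (-0.69 and -0.30). Sf3b5 and Sf3a2 did not pass, at -0.08 and 0.13, and passed at -0.25 and 0.16 without Cadict replicate 2 (adjusted p = 0.0172 and 0.0327 in edgeR).

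**Figure D4:**
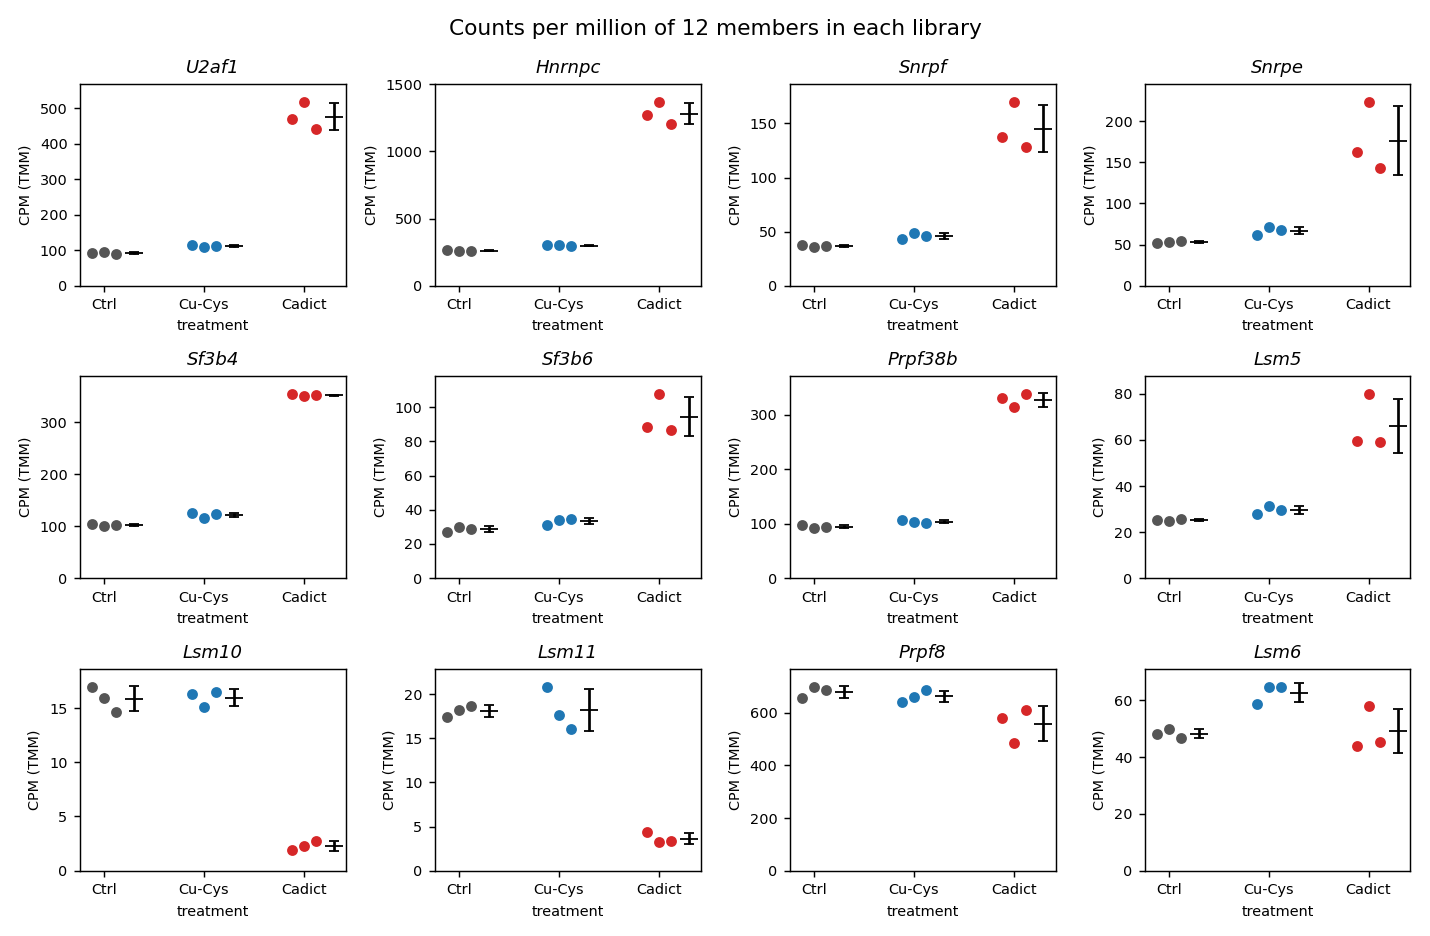
TMM-scaled CPM (y axis, from 0) of 12 members in each library (points) by treatment (x axis), with the mean and SD of 3 libraries as a bar to the right. Cadict libraries lie above Ctrl without overlap for U2af1, Hnrnpc, Snrpf, Snrpe, Sf3b4, Sf3b6, Prpf38b and Lsm5 and below it for Lsm10, Lsm11 and Prpf8, while for Lsm6 they overlap; under library totals changes with Cadict are about 0.95 log2 units lower.

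The PRPF genes of the tri-snRNP had the smallest median. Prpf38b, a relative of the factor that activates the tri-snRNP, measured 97.8, 91.5 and 94.5 CPM in Ctrl, 107, 103 and 101 CPM with Cu-Cys and 330.5, 314 and 338 CPM with Cadict. Every Cadict library was over 3 times as high as any Ctrl library (log2 fold change 1.79 ± 0.051 SE, adjusted p = 3.11e-14 in edgeR; 0.84 under library totals), and its paralog Prpf38a stood at 0.74 (-0.21 under library totals). Prpf3, Prpf4 and Prpf31, which join U4 to U6, had log2 fold changes of 1.17, 0.41 and 0.56, each with an adjusted p of at most 1.1e-05 in edgeR, and the last pair turned sign under library totals (-0.55 and -0.39). Prpf8, the U5 protein at the catalytic centre, measured 655, 698 and 686 CPM in Ctrl, 641, 661 and 685 CPM with Cu-Cys and 579.5, 484 and 611 CPM with Cadict. Every Cadict library was below every Ctrl library (log2 fold change -0.28 ± 0.07 SE, adjusted p = 0.00143 in edgeR). The other U5 protein of the group, Prpf6, which bridges U5 and U4/U6, stood at 117 CPM in Ctrl and 120.0 CPM with Cadict (log2 fold change 0.04 ± 0.053 SE, adjusted p = 0.504 in edgeR; -0.91 under library totals). Prpf40b, a U1-associated protein, was also lower (log2 fold change -0.29 ± 0.11 SE, adjusted p = 0.0237 in edgeR), but not past 0.05 without either of Ctrl replicates 1 and 2 or Cadict replicates 1 and 3 (adjusted p = 0.0594 to 0.0766 in edgeR).

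The hnRNP genes together took 1.12% to 1.15% of all counts in Ctrl and 1.33% to 1.39% with Cadict. Hnrnpc, which binds uridine tracts and competes there with U2AF, measured 262, 257 and 261 CPM in Ctrl, 301, 301 and 294 CPM with Cu-Cys and 1271, 1368 and 1206 CPM with Cadict. Cadict lay far above both other groups (log2 fold change 2.3 ± 0.054 SE, adjusted p = 3.81e-15 in edgeR; 1.35 under library totals and 1.00 on the TPM scale). Hnrnph2, which binds runs of G, measured 117, 118 and 119 CPM in Ctrl, 124, 134 and 123 CPM with Cu-Cys and 470.1, 422 and 475 CPM with Cadict (log2 fold change 1.95 ± 0.057 SE, adjusted p = 4.17e-14 in edgeR). Its close relative Hnrnph1 went from 360.1 ± 10.5 to 542 ± 22.7 CPM (SD, n = 3; log2 fold change 0.59 ± 0.052 SE, adjusted p = 2.48e-08 in edgeR; -0.36 under library totals), and the difference between the pair was not tested. Hnrnpa2b1, which binds and sorts mRNA and small RNA, measured 1179.7, 1104 and 1112 CPM in Ctrl, 1417, 1457 and 1341 CPM with Cu-Cys and 3457, 3589.6 and 3577 CPM with Cadict. The groups were ordered Ctrl, Cu-Cys, Cadict without overlap (log2 fold change 1.65 ± 0.051 SE, adjusted p = 7.83e-14 in edgeR).

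Further calls came from most branches of the family, except that of Hnrnpu and its relatives. Hnrnpu rose but fell just short of a fold change of 2 (log2 fold change 0.96, adjusted p = 2.68e-11 in edgeR). DESeq2 size factors (1.08) and DESeq2's Wald test placed Hnrnpu among the calls. Under library totals Hnrnpu stood at 0.003 (adjusted p = 0.949 in edgeR), and on the log2(TPM + 1) scale at -0.32. Its relative Hnrnpul2 rose by 0.49 (-0.47 under library totals), whereas Hnrnpul1 fell. The splicing regulator Hnrnpm rose by 1.56, the poly(C)-binding protein Hnrnpk by 1.14 and the AU-rich element binding protein Hnrnpd by 1.44 on the log2 scale, and Hnrnpa1, Hnrnpa3, Hnrnpf and Hnrnph3 were called as well. On the log2(TPM + 1) scale Hnrnpk, Hnrnpa1, Hnrnpa3 and Hnrnpf lay below 0 (-0.17, -0.26, -0.35 and -0.05). Hnrnpm, Hnrnpd and Hnrnph3 stayed above it there (0.26, 0.13 and 0.05). Under library totals Hnrnpa1 and Hnrnpa3 stood at 0.09 and 0.07 (adjusted p = 0.056 and 0.235 in edgeR). Hnrnpm, Hnrnpk, Hnrnpd, Hnrnpf and Hnrnph3 stayed higher under library totals (0.61, 0.19, 0.48, 0.30 and 0.38). Hnrnpab and Hnrnpdl, relatives of Hnrnpd, rose by 1.42 and 1.44 on the log2 scale (adjusted p = 1.31e-13 and 9.73e-13 in edgeR). Of the hnRNP L pair, Hnrnpll, known for CD45 exon skipping in lymphocytes, was called (log2 fold change 1.03 ± 0.046 SE, adjusted p = 5.64e-12 in edgeR). Its partner Hnrnpl was not called (log2 fold change -0.03 ± 0.049 SE, adjusted p = 0.598 in edgeR). Under library totals Hnrnpll stood at 0.08 (adjusted p = 0.144 in edgeR) and Hnrnpl at -0.98. The difference between them was not tested. Hnrnpul1, which takes part in the response to DNA breaks, measured 176, 178 and 170.0 CPM in Ctrl, 154, 151 and 158 CPM with Cu-Cys and 127, 116 and 136 CPM with Cadict. The 3 groups were ordered without overlap, with Cadict lowest (log2 fold change -0.47 ± 0.057 SE, adjusted p = 1.4e-06 in edgeR). Hnrnpr was lower as well (log2 fold change -0.36 ± 0.052 SE, adjusted p = 7.32e-06 in edgeR). Counts of Hnrnpf and Hnrnpa1 are uncertain because 61.9% and 28.2% of their 50-base stretches also occur in other annotated genes, and 21 of the 71 members share over 10% in this way. Hnrnpa1l2-ps2, a pseudogene by its symbol, was near the lower limit of the tested genes, at 0.954 ± 0.223 CPM in Ctrl and 1.76 ± 0.246 CPM with Cadict (SD, n = 3).

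With Cu-Cys alone the members moved little, and almost all in one direction. No member reached a fold change of at least 2 (0 of 70 by edgeR and 0 by DESeq2's Wald test, against 1.64% of all genes called), but with an adjusted p no greater than 0.05 edgeR gave 45 members higher and 2 lower, beside a background of 22.6% higher and 22.4% lower. At an unadjusted p under 0.05, 49 were higher and 2 lower, beside 3170 and 3107 of all 11949 genes. The median log2 fold change was 0.22, compared with 0.01 over all genes, and under library totals it was 0.15, with 32 members higher and 4 lower at 0.05. In limma on log2(TPM + 1) it was 0.064, with 8 members higher and 2 lower at 0.05. Over all genes the median was -0.06 under library totals and -0.12 on the log2(TPM + 1) scale. How many of all genes passed 0.05 under these scalings was not counted. All 11 snRNP genes were higher, between 0.25 and 0.45. Snrpd3, an Sm ring protein, measured 42.3, 45.5 and 42.6 CPM in Ctrl and 54.9, 62.4 and 60.7 CPM with Cu-Cys (log2 fold change 0.45 ± 0.066 SE, adjusted p = 7.92e-05 in edgeR). Hnrnpab had the smallest adjusted p of the members and measured 647, 646 and 659 CPM in Ctrl and 871, 870.4 and 844 CPM with Cu-Cys (log2 fold change 0.41 ± 0.045 SE, adjusted p = 6.43e-06 in edgeR). In both genes every Cu-Cys library was above every Ctrl library.

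The remaining members with the smallest adjusted p in their groups were Snrpb2 (0.40) and Snrpa (0.25) among snRNP genes, Prpf31 (0.36), Prpf4 (0.34) and Prpf3 (0.27) among PRPF genes and Lsm2 (0.35), Lsm6 (0.38) and Lsm1 (0.35) among LSm genes. For SF3, U2AF and hnRNP genes they were Sf3b4 (0.25), Sf3b3 (0.26), Sf3a3 (0.25), U2af2 (0.24), U2af1 (0.29), Hnrnpa2b1 (0.31) and Hnrnpdl (0.34). The lower pair was Hnrnpul1 (log2 fold change -0.18 ± 0.056 SE, adjusted p = 0.0164 in edgeR) and Prpf40b (log2 fold change -0.33 ± 0.10 SE, adjusted p = 0.0138 in edgeR), which were also lower with Cadict. Members called higher with Cadict that did not pass with Cu-Cys included Hnrnph2 at 0.11 (adjusted p = 0.131 in edgeR) and Sf3b1 at 0.11 (adjusted p = 0.109 in edgeR), while Prpf38b passed narrowly at 0.13 (adjusted p = 0.0476 in edgeR). Without Cadict replicate 2, which enters the shared estimate of the spread, Hnrnph2 and Sf3b1 passed as well (adjusted p = 0.0243 and 0.0102 in edgeR). The 2 comparisons with Ctrl share the same control libraries.

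Set directly against Cu-Cys, Cadict gave 21 members higher and 2 lower at the fold change threshold, beside 18.6% and 23.6% of all genes. When only an adjusted p no greater than 0.05 was asked for, 49 were higher and 11 lower, beside 40.3% and 45.6%. The median of the members was 0.71 and that of all genes -0.10, and under library totals these were -0.17 and -0.98, with 2 members called higher and 11 lower, beside 5.76% and 47.7% of all genes. In limma on log2(TPM + 1), 0 were called higher and 18 lower, beside 3.00% and 48.4%. With TMM, both members called lower were again Lsm10 and Lsm11.

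Since mRNA length differed between the groups of members, from a median implied length of 480 bases for snRNP genes to 3238 bases for PRPF genes, the changes were also read by length. Over the 70 members the log2 length and the log2 fold change with Cadict had Pearson's r of -0.18 and Spearman's rho of -0.29, and over 10760 tested genes r was -0.22. These are descriptions across genes of the same libraries, which are not independent replicates. Among genes under 1000 bases the median change with Cadict was 0.99 for 22 members and 0.70 for all 1375 genes. From 1000 to 2000 bases it was 1.05 for 11 members and 0.05 for all genes, and from 2000 to 3000 bases 1.14 for 19 members and -0.27 for all genes. From 3000 to 4000 bases it was 0.26 for 7 members and -0.41 for all genes. Above 4000 bases it was 0.49 for 11 members and -0.43 for all genes. The members lay above all genes of like length in each bin, and least so among the shortest.

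The effective length that a library's count and FPKM imply for a gene can move with the mix of its transcripts, and it was used as a second readout. It is not set by that mix alone. Only the median of each library was removed, and what moved the lengths was not tested. None of the 65 members measured changed by a ratio of at least 1.2 with an adjusted p of at most 0.001 in Cadict against Ctrl (limma), where 0.225% of 7540 genes were called longer and 0.504% shorter. At an adjusted p of at most 0.05, 29 members were longer and 6 shorter. These 35 of 65 are near the 53.6% of all genes that passed in either direction. How all genes split between longer and shorter at 0.05 was not counted, so the members' split has no background beside it. At an unadjusted p under 0.05, 43 members passed. The ratios ran from 0.909 for Lsm12 (adjusted p = 0.173, limma) to 1.12 for Snrpg (adjusted p = 0.157, limma). Hnrnph1 was shorter by a ratio of 0.930 (adjusted p = 2.21e-05, limma), with 2030.3 bases in Ctrl and 1882 with Cadict, and Lsm14a by a ratio of 0.953 (adjusted p = 0.000143, limma). With Cu-Cys, 0 members passed 0.05, where only 0.0265% of all genes did, and 1 passed an unadjusted p under 0.05.

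Other genes of the splicing pathway, from lists written from general knowledge, gave the members' surroundings in Cadict against Ctrl. Beside the calls on these lists, 20.7% of all tested genes were called higher and 27.1% lower. The exon junction complex, laid down upstream of each splice, had a median of 1.57 with 7 of 10 genes called higher and 0 lower. Its core genes Rbm8a, Magoh and Eif4a3 stood at 2.15, 1.95 and 1.68, each called, while Casc3, the other core gene, was lower at -0.95 (adjusted p = 4.35e-09 in edgeR) without reaching the fold change of 2. RNA-binding proteins related to hnRNPs had a median of 1.2, with 16 of 26 called higher and 0 lower, among them Ewsr1 (2.31) and Tardbp (2.09). Other U2 and branch site factors had a median of 0.64 with 5 of 13 called higher and 1 lower (Ddx42, -2.27), and other U1 and tri-snRNP proteins a median of 0.58 with 5 of 15 higher and 1 lower (Snrnp200, the helicase that unwinds U4 from U6, -1.10). PRP19 and catalytic factors had a median of 0.52 with 8 of 26 higher and 2 lower, and the minor spliceosome a median of 0.49 with 4 of 10 higher and 1 lower.

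The SMN complex and its partners, which load the Sm ring onto snRNA, had a median of -0.28. Of these 15 genes 4 were called higher and 6 lower, beside 20.7% and 27.1% of all genes. Those called lower included Gemin4 (-4.63), Ddx20 (-2.87), Gemin7 (-2.57) and Gemin8 (-2.48), which are subunits of the complex, and Coil (-2.58), the Cajal body scaffold. Gemin2 (1.75), which holds the Sm proteins, and Strap (1.67) were called higher. None of the genes on these lists was called with Cu-Cys. Under library totals the median was 0.61 for the exon junction complex and 0.25 for the hnRNP-related list, and lay between -0.31 and -1.23 for the other 5 lists. On the log2(TPM + 1) scale the exon junction complex stood at 0.26 and the hnRNP-related list at -0.10. The calls depended on the scale too. Under library totals the exon junction complex had 2 higher and 1 lower, and the hnRNP-related list 4 and 3. The SMN list had 0 higher and 8 lower there, beside 6.93% and 51.5% of all genes. With DESeq2 size factors, 0 genes on the list of other U1 and tri-snRNP proteins were called lower.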

How the data were processed

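The authors deposited 1 table with, for each gene and library, an expected count (RSEM's estimated count of reads), a normalised count signal, an FPKM and a TPM. The submitters' processing notes name HISAT2 2.1.0, Bowtie2 2.3.4.3 and RSEM 1.3.1 and the builds GRCm39 and GRCh38.p13 without roles. In that table, 9.77% of the deposited expected counts were not whole and were rounded, the authors' normalised signal (expected count over a size factor per library) was left unused, as were 12 columns of group averages, and FPKM and TPM deposited by the authors served as alternatives and for levels per length. Strand was not stated, so overlapping genes cannot be told apart.

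Counts were tested in R 4.3.3 with the quasi-likelihood test of edgeR 4.0.16 (filterByExpr, TMM, 1 fit of the 3 groups), with Benjamini-Hochberg adjustment over 11949 genes. A call needed a fold change of 2 or more with an adjusted p no greater than 0.001, and calls at 0.05 are given too. Standard errors come from the fold change and its F statistic. Implied effective length was the count over the product of FPKM and library total, centred on the library median and tested in limma 3.58.1 over 7540 genes with at least 100 counts and an FPKM of at least 1 in every library. Alternatives were DESeq2 1.42.0, DESeq2 size factors, library totals, other filters, log2 values of FPKM and TPM with pseudocounts of 1 and 0.1, a replicate block and leaving out each library. Scripts were tested on simulated data. Shared stretches were counted as 50-base words of annotated transcripts (GENCODE M21, GRCm38), and promoters came from RefSeq. Intervals and floors cover counting error only.

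Members and lists were chosen with earlier results of these data known. In each group the text names the 3 largest rises and the 3 largest falls among members called with Cadict at an average of 10 CPM or more, members called with Cu-Cys and the 3 with the smallest adjusted p there, all members of small groups, members that moved in opposite directions against Ctrl and members called in length. Further members (such as Snrpg, Prpf8, Hnrnph1 and Lsm14b) were named after their values were seen. Values of 1 member are not reported here.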

Additional observations from a re-analysis of the deposited data

How the results depend on the processing

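Member counts for Cadict against Ctrl were 31 higher and 2 lower. No named member with an adjusted p of at most 0.05 turned sign with DESeq2 size factors, another filter, the Wald test or a library left out, whereas Hnrnpl, Lsm2, Lsm6, Prpf6 and Sf3b5, which did not pass in Cadict against Ctrl, crossed 0 under at least 1 of these. DESeq2 size factors gave member medians of 0.98 in Cadict against Ctrl, 0.25 in Cu-Cys against Ctrl and 0.81 in Cadict against Cu-Cys. A minimum of 10 counts in every library gave 0.80, 0.20 and 0.68, or 0.91, 0.20 and 0.75 less the median of all genes. No filter on low counts gave 0.76, 0.23 and 0.62, or 0.76, 0.23 and 0.62 less the median of all genes. DESeq2's Wald test gave 0.92, 0.22 and 0.76, or 0.78, 0.22 and 0.60 less the median of all genes. With library totals, 3 higher and 9 lower were called against Ctrl and 2 higher and 11 lower against Cu-Cys, and the medians were -0.090, 0.15 and -0.17, or 0.99, 0.22 and 0.81 less the median of all genes. Group medians that turned sign against Ctrl were SF3 -0.15, LSm -0.37 and PRPF -0.55. Members that turned sign included Lsm2 -0.88, Lsm6 -0.93, Prpf31 -0.39, Prpf4 -0.55, Sf3a3 -0.30, Sf3b3 -0.69, U2af1l4 -0.50, Snrpg -0.66, Prpf6 -0.91, Hnrnph1 -0.36, Lsm12 -0.11, Lsm14a -0.19, Prpf38a -0.21, Snrpd2 -0.37, Sf3a2 -0.82 and Hnrnpa1l2-ps2 -0.067. With limma on log2(FPKM + 1), 2 higher and 7 lower were called against Ctrl and 2 higher and 12 lower against Cu-Cys. Of all genes, 5.13% were called higher and 41.5% lower against Ctrl, and 3.95% and 37.7% against Cu-Cys. The medians of the members were -0.057, 0.13 and -0.18, or 0.72, 0.18 and 0.50 less the median of all genes. Group medians that turned sign against Ctrl were SF3 -0.16, LSm -0.43 and PRPF -0.53. Members that turned sign included Lsm2 -0.90, Lsm6 -0.95, Prpf31 -0.38, Prpf4 -0.53, Sf3a3 -0.31, Sf3b3 -0.69, U2af1l4 -0.52, Snrpg -0.82, Prpf6 -0.90, Hnrnph1 -0.25, Lsm14a -0.12, Prpf38a -0.23, Snrpd2 -0.51, Sf3a2 -0.81 and Hnrnpa1l2-ps2 -0.043. With limma on log2(TPM + 1), 1 higher and 16 lower were called against Ctrl and 0 higher and 18 lower against Cu-Cys, and the medians were -0.40, 0.064 and -0.45, or 0.73, 0.18 and 0.51 less the median of all genes. Group medians that turned sign against Ctrl were snRNP -0.14, SF3 -0.50, LSm -0.78, PRPF -0.87, U2AF -0.16 and hnRNP -0.26. Members that turned sign included Lsm1 -0.13, Lsm2 -1.25, Lsm5 -0.015, Lsm6 -1.30, Prpf3 -0.12, Prpf31 -0.72, Prpf4 -0.87, Sf3a3 -0.65, Sf3b3 -1.04, Snrpb2 -0.14, Snrpd3 -0.18, U2af1l4 -0.86, U2af2 -0.16, Snrpg -1.17, Prpf6 -1.25, Hnrnph1 -0.60, Hnrnpll -0.27, Lsm12 -0.31, Lsm14a -0.46, Prpf38a -0.57, Snrpd1 -0.34, Snrpd2 -0.85, Sf3a2 -1.16, Hnrnpa1 -0.26, Hnrnpa3 -0.35, Hnrnpf -0.05, Hnrnpk -0.17 and Hnrnpa1l2-ps2 -0.28. For Cu-Cys, the PRPF median was -0.014 and Prpf38b was -0.014. With limma on log2(TPM + 0.1), 1 higher and 18 lower were called against Ctrl and 0 higher and 19 lower against Cu-Cys. Of all genes, 4.2% were called higher and 60.3% lower against Ctrl, and 3.9% and 55.5% against Cu-Cys. The medians of the members were -0.41, 0.065 and -0.45, or 0.98, 0.20 and 0.75 less the median of all genes. Group medians that turned sign against Ctrl were snRNP -0.14, SF3 -0.50, LSm -0.78, PRPF -0.90, U2AF -0.16 and hnRNP -0.26. Members that turned sign included Lsm1 -0.13, Lsm2 -1.26, Lsm5 -0.016, Lsm6 -1.36, Prpf3 -0.12, Prpf31 -0.74, Prpf4 -0.90, Sf3a3 -0.65, Sf3b3 -1.04, Snrpb2 -0.14, Snrpd3 -0.18, U2af1l4 -0.90, U2af2 -0.16, Snrpg -1.17, Prpf6 -1.26, Hnrnph1 -0.60, Hnrnpll -0.27, Lsm14a -0.46, Prpf38a -0.57, Snrpd1 -0.34, Snrpd2 -0.86, Sf3a2 -1.18, Hnrnpk -0.17 and Hnrnpa1l2-ps2 -0.40. For Cu-Cys, the PRPF median was -0.015 and Prpf38b was -0.015. The cause of these reversals was not tested. Without a limit on the fold, calls were 56 and 7 against Ctrl, 45 and 2 for Cu-Cys, and 49 and 11 against Cu-Cys. Leaving out each library in turn gave 29 to 32 members higher and 2 lower against Ctrl, Cu-Cys medians of 0.21 to 0.23, or 0.21 to 0.22 less that of all genes, and medians against Cu-Cys of 0.65 to 0.72. Replicate numbers are shared between groups, but same-numbered libraries did not deviate together (correlations -0.20 to 0.17 over 8551 genes). The replicate block gave 31 higher and 2 lower against Ctrl, the counts without it, and it does not mark a shared culture here. Depth limits Lsm10 and Lsm11 with Cadict, where 22 to 51 counts carry each value, and counts of genes that share sequence with others are uncertain.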
